A study of Mus musculus with 4 samples.

Results

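The clustered protocadherin genes of the mouse are the protein-coding genes on chromosome 18 whose symbols begin with Pcdha, Pcdhb or Pcdhg. The rule found 57 of the 21887 protein-coding genes on the primary chromosomes, with 14 Pcdha, 22 Pcdhb and 21 Pcdhg members. They lie between positions 36930285 and 37841873 of chromosome 18 in the mm10 (GRCm38) build, a stretch of 911.6 kb. A pair of histone marks was measured there by chromatin immunoprecipitation and sequencing: trimethylated lysine 4 of histone H3 (H3K4me3, antibody ab8580), found at active and poised promoters, and trimethylated lysine 9 (H3K9me3, antibody ab8898), found in heterochromatin. Macrophages had been elicited in the peritoneum of 8-week-old C57BL/6 mice with thioglycollate broth and grown as adherent cells. They received lipopolysaccharide (LPS), the bacterial cell wall component sensed by Toll-like receptor 4, or phosphate-buffered saline (PBS), in both cases for 24 h. Each mark and treatment had 1 library. No test between LPS and PBS was therefore possible, a ratio speaks of the libraries alone, not of the treatments, and intervals are exact 95% intervals that cover counting error only. The number of mice behind a library is not given in the sources used here. In a bulk sample, fewer cells that carry a mark and less of the mark in each cell cannot be told apart.

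Clustered protocadherins are cell adhesion proteins with repeated cadherin domains outside the cell. They are known above all from neurons, where each cell expresses its own combination of isoforms and so tells its own processes from those of others. In the Pcdha and Pcdhg subclusters every member has its own promoter and its own long variable exon, which encodes the extracellular part and the membrane span, and is spliced to a short set of constant exons shared by the whole subcluster. Pcdhb genes have no constant exon. In mouse neurons CTCF and cohesin loop a chosen promoter to distant enhancers, and the H3K9 methyltransferase Setdb1 is known to act on the locus. No sequence is shown for these genes.

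The filtered libraries held between 26748289 (H3K4me3 LPS) and 29681491 (H3K4me3 PBS) tags, with 28586946 and 27727997 in the H3K9me3 LPS and PBS libraries. The authors' caller listed 28505 and 31398 peaks of H3K4me3 and 17369 and 19279 peaks of H3K9me3 in LPS and PBS. It listed a peak only past a cutoff of 1e-05 on the p-value and used no control library. A member without a peak was therefore under that threshold and not shown to lack the mark. The cells' label was checked by H3K4me3 peaks within 1 kb of a gene end, which 61.6% of all protein-coding genes had in LPS and 63.4% in PBS. Such peaks marked 12 of 12 macrophage genes in both lists (3978 tags in LPS, 4890 in PBS). Of other cell types, the lists marked 2 of 7 T cell genes in LPS and 3 in PBS (79 and 226 tags), 2 of 6 B cell genes in both (300 and 392), 3 and 2 of 7 neutrophil genes (317 and 269) and 3 and 7 of 8 mesothelial and fibroblast genes (535 and 865). Of their defining genes, Cd3e, Ms4a1, Ly6g and Msln had no such peak in either list, whereas Cd3d (57 and 82 tags), Cd79a (256 and 354), Csf3r (240 and 250), Wt1 (207 and 321) and Col1a1 (140 and 199) had one in both. Upk3b, Krt8, Krt19 and Col1a2 were marked in PBS only, with 33 to 101 tags. Of 10 neuronal genes, 6 were marked in LPS and 7 in PBS (761 and 838 tags), shares near those of all genes. Grin1 had 321 and 286 tags and Tubb3 170 and 143, while Snap25 and Gap43 had no peak in either list. What other cells contribute to the values below was not tested.

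H3K4me3 in the locus was concentrated in the Pcdhg subcluster. There were 15 H3K4me3 peaks in LPS and 17 in PBS, each counted once, and 13 and 14 of them lay in the 180.1 kb of Pcdhg. The 258.6 kb of Pcdha held 1 peak in each list and the 256.4 kb of Pcdhb held none. The remaining peaks lay between Pcdhb and Pcdhg, 1 in LPS and 2 in PBS, and none lay between Pcdha and Pcdhb. The Pcdhg density was 72.2 peaks per Mb in LPS and 77.7 in PBS, against 8.85 and 9.66 over all of chromosome 18 and 10.5 and 11.5 over the primary chromosomes. A density per Mb takes no account of the 21 member starts packed into Pcdhg. By the start window described below, 47.6% of Pcdhg members were marked in LPS and 61.9% in PBS. The shares of other genes were 62.3% and 63.8%, so Pcdhg members were not marked more often than other genes.

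H3K9me3 was concentrated in the same subcluster. The locus held 16 peaks in LPS and 19 in PBS, of which 11 in each list lay in Pcdhg. That is 61.1 peaks per Mb in both lists, against 6.38 in LPS and 7.08 in PBS over the primary chromosomes. This density too takes no account of how closely the Pcdhg starts lie. Pcdhb held 3 peaks in LPS and 2 in PBS, and Pcdha held none in LPS and 3 in PBS. The Pcdhg peaks carried 504 tags in LPS (interval 461.0 to 550.0) and 428 in PBS (388.4 to 470.5), while the few peaks of the other subclusters held 12 to 20 tags each. The median over all peaks was 17 tags in LPS and 16 in PBS, so these counts lay on both sides of the middle of their lists.

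**Figure D1:**
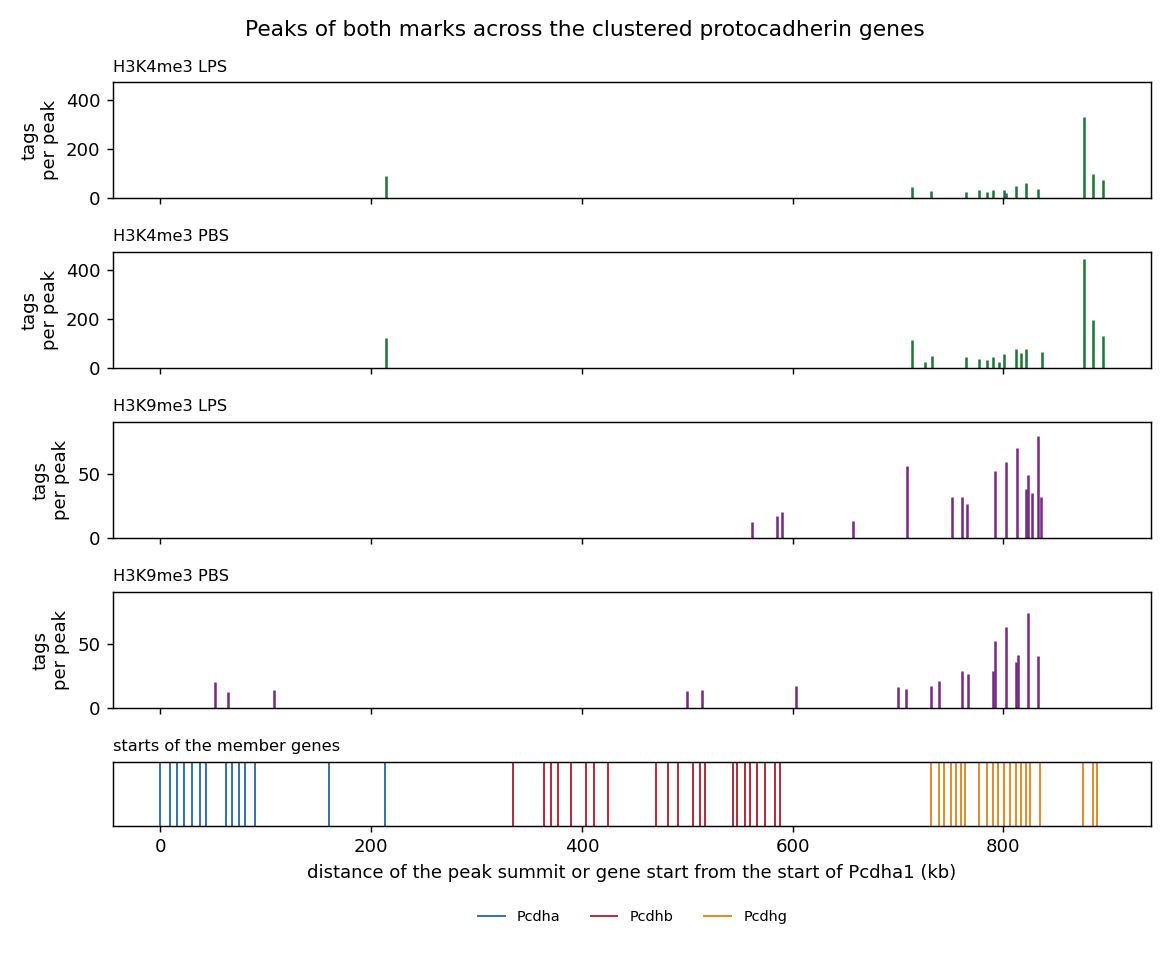
Tags in each peak (vertical axis, whose range differs between the marks) against the distance of its summit from the start of Pcdha1 in kb, for the 4 libraries, with the member starts below. Both marks crowd over the Pcdhg members, with 13 and 14 H3K4me3 peaks in LPS and PBS and 11 H3K9me3 peaks in each, while Pcdhb has no H3K4me3 peak.

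The variable exons were examined in a window from 1 kb before to 2.5 kb after each member start. Starts lay at least 4.154 kb apart, so no window was shared. An H3K4me3 peak lay in the window of 11 of 57 members in LPS (19.3%) and 14 in PBS (24.6%). Among 17492 other protein-coding genes with a known strand, the same window held one at 62.3% in LPS and 63.8% in PBS. By subcluster the count was 10 of 21 Pcdhg members in LPS and 13 in PBS, 1 of 14 Pcdha members and 0 of 22 Pcdhb members in both. All 11 members marked in LPS were also marked in PBS. Of the 10901 other genes marked in LPS, 10697 were likewise marked in PBS. As shares of all genes, 19.3% of the members and 61.2% of the other genes were marked in both lists. No member was marked in LPS only (other genes 1.17%), and 3 were marked in PBS only (2.68%).

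The C-type members, whose variable exons lie last in the Pcdha and Pcdhg arrays and which are the least like the others in sequence, carried the largest H3K4me3 peaks found in member windows. Pcdhgc3 had 328 tags over 3.35 kb in LPS and 444 tags over 3.23 kb in PBS. These exceeded the tags of 90.9% of the LPS list and 91.4% of the PBS list, and the peaks reached 2765 and 2831 bp past the start. Pcdhgc3 thus ranked high in both libraries. Pcdhgc4 had 98 tags in LPS and 193 in PBS, and Pcdhac2, the last member of Pcdha, had 91 and 123. Pcdhac1 and Pcdhgc5, the other C-type members, had no H3K4me3 peak in either list. Pcdhgc3 and Pcdhgc4 together held 50.5% of the H3K4me3 tags in Pcdhg peaks in LPS (interval 47.0 to 53.9) and 47.8% in PBS (45.0 to 50.5).

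The other marked Pcdhg members, of the A and B types that alternate along the array, had narrow and weak peaks. Their 9 peaks in LPS were 0.469 to 0.691 kb wide with 21 to 62 tags, and their 11 peaks in PBS 0.465 to 1.095 kb wide with 24 to 78 tags. The median peak of the whole list was wider, at 1006 bp with 79 tags in LPS and 1050 bp with 89 tags in PBS. Of the A type, Pcdhga1 had 28 tags in LPS and 50 in PBS, Pcdhga5 24 and 46, Pcdhga6 31 and 37, and Pcdhga7 25 and 33. Of the B type, Pcdhgb4 had 33 tags in LPS and 44 in PBS, Pcdhgb6 49 and 78, and Pcdhgb7 62 and 75. In all 7 of these genes the count was lower in LPS, although only at Pcdhga5 did the interval of the ratio lie wholly below 0. Pcdhgb5 had 34 and 56 tags at its start, and in LPS a further peak of 21 tags 2067 bp into the gene.

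The members marked in PBS only were Pcdhga8 with 24 tags, Pcdhga10 with 61 and Pcdhga12 with 65. Their scores, the caller's minus 10 times the base 10 logarithm of the p-value, were 65.5, 50.4 and 121.5, where 50 is the lowest in the list. At Pcdhga10 only 0.666% of the PBS peaks scored lower, so its listing rests on the threshold. Members with no H3K4me3 peak in either list were Pcdhga2, Pcdhga3, Pcdhga4, Pcdhga9, Pcdhga11, Pcdhgb1, Pcdhgb2 and Pcdhgc5 in Pcdhg, all Pcdha members but Pcdhac2, and all Pcdhb members. The B-type genes Pcdhgb4, Pcdhgb5, Pcdhgb6 and Pcdhgb7, which lie after Pcdhga7, were marked in both lists, whereas Pcdhgb1 and Pcdhgb2, which lie before Pcdhga5, were marked in neither.

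H3K9me3 had a peak in the variable exon window of 12 of 57 members in LPS (21.1%) and 10 in PBS (17.5%), against 14.9% and 11.6% of the other genes. Over all members these shares are not far from the background. By subcluster the count was 9 of 21 Pcdhg members in LPS and 8 in PBS, 3 and 1 of 22 Pcdhb members, and 0 and 1 of 14 Pcdha members. The Pcdhg shares, 42.9% in LPS and 38.1% in PBS, were above those of the other genes. The Pcdhb shares were 13.6% and 4.5%, and the Pcdha shares 0% and 7.1%. Marked in both lists were 6 members, all of them in Pcdhg (other genes 7.0%). A further 6 were marked in LPS only (7.90%) and 4 in PBS only (4.58%).

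The B-type genes carried most of the H3K9me3. All 6 had a peak in LPS and 5 in PBS, against 3 of the 12 A-type genes in each list and 0 of the 3 C-type genes of Pcdhg. B-type windows held 65.9% of the H3K9me3 tags in Pcdhg peaks in LPS (interval 61.6 to 70.0) and 75.7% in PBS (71.4 to 79.7). Pcdhgb4 had 52 tags in LPS and 81 in PBS, Pcdhgb5 59 and 63, Pcdhgb6 70 and 77, Pcdhgb7 87 and 74, and Pcdhgb2 32 and 29. Pcdhgb1 had 32 tags in LPS and no peak in PBS. Peaks at A-type and B-type genes were large for this mark: their median count was 36.5 tags in the LPS list, where that of all peaks was 17, and 32.5 in the PBS list, where it was 16. Related variable exons are alike in sequence, and how reads that match several places were treated is not given in the sources used here, so the split between neighbouring members is uncertain.

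Among A-type genes only Pcdhga5 had H3K9me3 in both lists, with 26 tags in each. Pcdhga11 (35 tags) and Pcdhga12 (32 tags) were marked in LPS only, and Pcdhga1 (17 tags) and Pcdhga2 (21 tags) in PBS only. In Pcdhb the marked genes were Pcdhb18 (12 tags), Pcdhb21 (17) and Pcdhb22 (20) in LPS and Pcdhb13 (14) in PBS. The lone Pcdha gene was Pcdha8, with 12 tags in PBS. Outside Pcdhg no member was marked in both libraries.

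**Figure D2:**
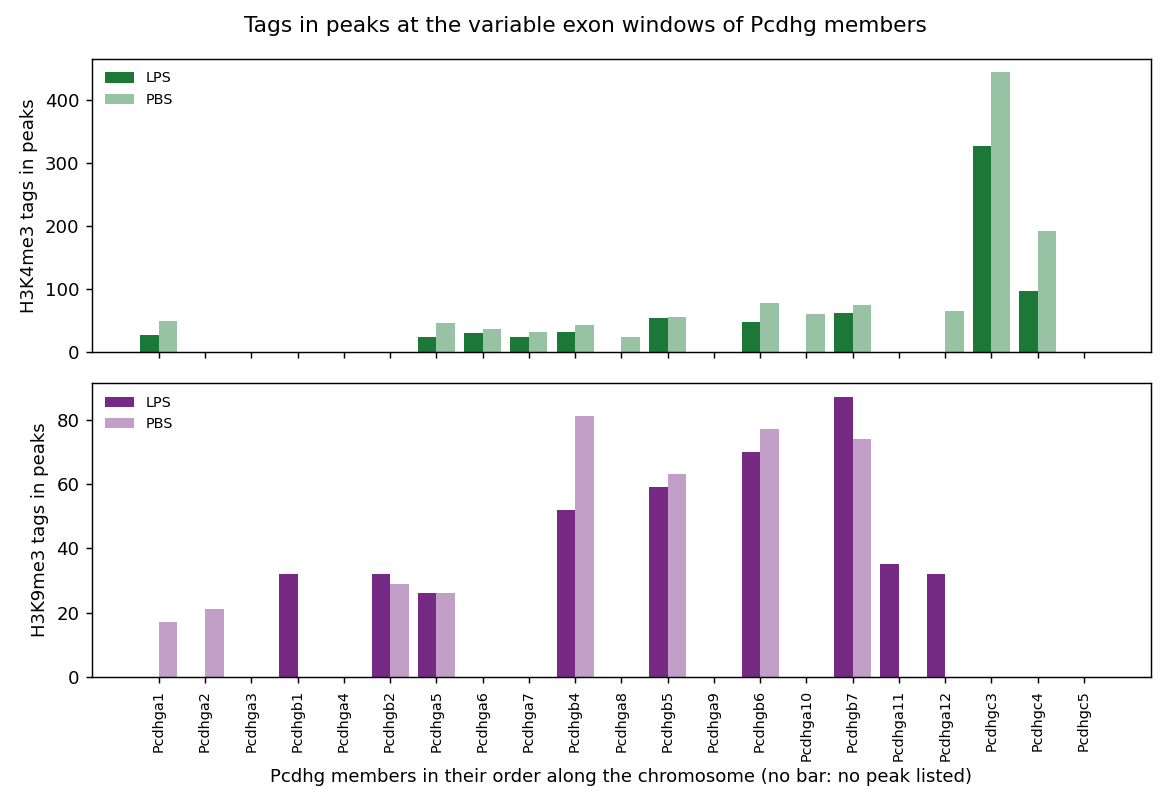
Tags in H3K4me3 peaks (upper panel) and H3K9me3 peaks (lower panel) in the variable exon window of each Pcdhg member, in chromosomal order, for LPS (dark) and PBS (light). Pcdhgc3 stands out for H3K4me3 with 328 and 444 tags and has no H3K9me3 bar, while Pcdhgb4 to Pcdhgb7 carry both marks.

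The marks lay at different places in the variable exons. H3K4me3 summits in members lay just after the start, with medians of 300 bp in LPS (12 peaks) and 311.5 bp in PBS (14 peaks). Of them, 11 in LPS and 13 in PBS lay within the first kb. H3K9me3 summits had medians of 1903 bp in LPS (13 peaks) and 1781 bp in PBS (12 peaks), and 11 and 8 of them lay 1 kb or more after the start. In the other genes only 16.7% of H3K9me3 summits in such windows in LPS and 17.7% in PBS lay that far in, with medians of 380 and 377 bp. Counted by gene, 11 of 57 members in LPS (other genes 2.43%) and 8 in PBS (1.97%) had an H3K9me3 summit 1 to 2.5 kb after the start.

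These late H3K9me3 summits lay in a narrow band. They ran from 1612 to 2296 bp after the start in LPS and from 1633 to 2298 bp in PBS, and included those of the Pcdhb genes and of Pcdha8. At Pcdhgb2 the summits of both libraries were 21 bp apart, at Pcdhgb4 65 bp, at Pcdhgb7 74 bp and at Pcdhgb5 78 bp, while at Pcdhgb6 and Pcdhga5 they were 331 and 395 bp apart. The H3K4me3 summits of the 11 shared members differed by 4 to 150 bp, with a median of 40 bp. Pcdhga5, Pcdhgb4, Pcdhgb5, Pcdhgb6 and Pcdhgb7 had an early H3K4me3 and a late H3K9me3 summit in both treatments, separated by 1499 to 1752 bp in LPS and 1684 to 2001 bp in PBS.

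Early H3K9me3 summits, within the first kb, were fewer and differed between the libraries. In LPS they were at Pcdhgb7 (254 bp after the start, 38 tags) and Pcdhga12 (748 bp, 32 tags). In PBS they were at Pcdhga1 (250 bp, 17 tags), Pcdhga2 (154 bp, 21 tags), Pcdhgb4 (356 bp, 29 tags) and Pcdhgb6 (211 bp, 36 tags). No early peak was listed at the same gene in both libraries.

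**Figure D3:**
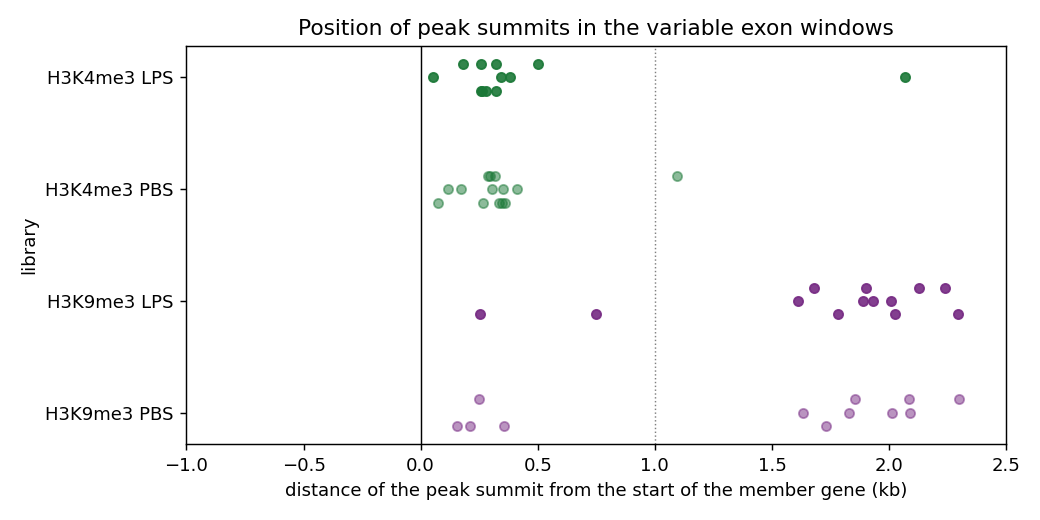
Distance of each peak summit from the start of its member gene in kb, for all peaks in variable exon windows, by library; the solid line is the gene start and the dotted line 1 kb. Apart from the further LPS peak in Pcdhgb5 and the PBS peak of Pcdhga12, H3K4me3 summits lie within 0.5 kb after the start, and most H3K9me3 summits lie between 1.6 and 2.3 kb.

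Both marks occurred in the same window in 5 of 57 members in LPS and 6 of 57 in PBS, all in Pcdhg. Over all members neither share exceeded that of the other genes, 14.1% in LPS and 10.8% in PBS. Within Pcdhg alone, 5 of 21 members in LPS and 6 of 21 in PBS were above these shares. In LPS the members with both marks were Pcdhga5, Pcdhgb4, Pcdhgb5, Pcdhgb6 and Pcdhgb7, and in PBS the same genes with Pcdhga1. With the lists of both treatments pooled, 7 members of Pcdhg had both marks, 6 had H3K4me3 alone and 4 had H3K9me3 alone. Pcdhga12 counts among the 7 by H3K4me3 in PBS and H3K9me3 in LPS, never both in 1 treatment. In this pool 4 members had neither mark (Pcdhga3, Pcdhga4, Pcdhga9 and Pcdhgc5). Peaks that share bases were rarer: 3 of the 15 H3K4me3 peaks of the locus overlapped an H3K9me3 peak of the same treatment in LPS and 3 of 17 in PBS. Over the genome such peaks made up 18.8% of the H3K4me3 list in LPS and 12.6% in PBS. Within 1 kb the counts were 4 and 5, against 20.7% and 14.1%. In LPS the overlaps were at the start of Pcdhgb7, in the late part of Pcdhgb5 and in the pseudogene Pcdhgb8, and in PBS at the starts of Pcdhga1, Pcdhgb4 and Pcdhgb6. The H3K4me3 peaks inside Pcdhgb5 and Pcdhgb8 were listed in LPS only, with scores of 56.3 and 66.2.

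No peak was listed in the stretches taken here as the constant regions. Exon positions were not used here, so the constant region was taken as the stretch from 10 kb before to 1 kb after the end that members share, at 37188897 for Pcdha and 37841873 for Pcdhg. Neither region met a peak of either mark in any of the 4 lists. Whether constant exons lie outside these regions was not examined. Past the shared end of Pcdhg, the PBS library listed H3K4me3 peaks of 64 and 38 tags that began 5.78 and 7.19 kb beyond it. Inside the locus, the nearest was an H3K4me3 peak of 74 tags in the LPS library and 128 in the PBS library. It ended 15.7 and 15.3 kb before the shared end of Pcdhg. Its summit lay 5744 and 5691 bp after the start of Pcdhgc5, outside that gene's window, and the peak ended 0.972 and 0.506 kb before the annotated left end of the long non-coding RNA gene Gm29994. It belongs to no variable exon window, although both libraries listed it.

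Summed over the members marked in both lists, H3K4me3 was lower in LPS by about as much as at the median of other genes. The 11 members with a peak in both lists held 824 tags in LPS and 1179 in PBS, which after division by each library's filtered tags is a log2 ratio (LPS over PBS) of -0.37 (interval -0.50 to -0.24). Their median ratio was -0.28, from -0.83 at Pcdhgc4 to 0.12 at Pcdhgb5, and 10 of the 11 were below 0. Among 10697 other genes marked in both lists the median was -0.37, with quartiles of -0.53 and -0.23. Of the 11 members, 4 lay below that median. The summed tags came from peaks of 11.3 kb in LPS and 12.4 kb in PBS, and per covered kb the log2 ratio was -0.23.

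Single members had wide intervals. Pcdhgc4 had the lowest ratio (-0.83, -1.19 to -0.47), or -0.15 per covered kb, since its peak was 1.365 kb wide in LPS and 2.181 kb in PBS. Pcdhgc3 had -0.29 (-0.50 to -0.08), Pcdhga5 -0.79 (-1.56 to -0.05) and Pcdhac2 -0.28 (-0.69 to 0.12). The ratio of Pcdhgb5 counts its additional LPS peak, and its start peak alone gave -0.57 (-1.23 to 0.07). The interval lay wholly below 0 in 3 of the 11 members, Pcdhga5, Pcdhgc3 and Pcdhgc4. Of the 6 members whose LPS and PBS tags summed to 100 or more, 0 reached a 2-fold difference in either direction, against 0.319% of other genes higher in LPS and 3.62% higher in PBS.

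H3K9me3 at the 6 members marked in both lists came to 326 tags in LPS and 350 in PBS, a log2 ratio of -0.15 (-0.37 to 0.08). The ratios ran from -0.68 at Pcdhgb4 (-1.21 to -0.16) to 0.19 at Pcdhgb7 (-0.27 to 0.66). Of the 6 member ratios, the interval of 1 lay wholly below 0. At Pcdhgb4 the difference came from the early peak listed in PBS only, since its late peak had 52 tags in each library. Without its early PBS peak, Pcdhgb6 had 70 tags in LPS and 41 in PBS (0.73, 0.15 to 1.32). Without its early LPS peak, Pcdhgb7 had 49 and 74 (-0.64, -1.19 to -0.10). Per covered kb these 2 late peaks gave 0.05 and 0.07. The late peaks of Pcdhgb2, Pcdhga5, Pcdhgb4 and Pcdhgb5 had intervals that reached 0. In 1225 other genes marked in both lists the median was 0.16, with quartiles of -0.25 and 0.70.

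**Figure D4:**
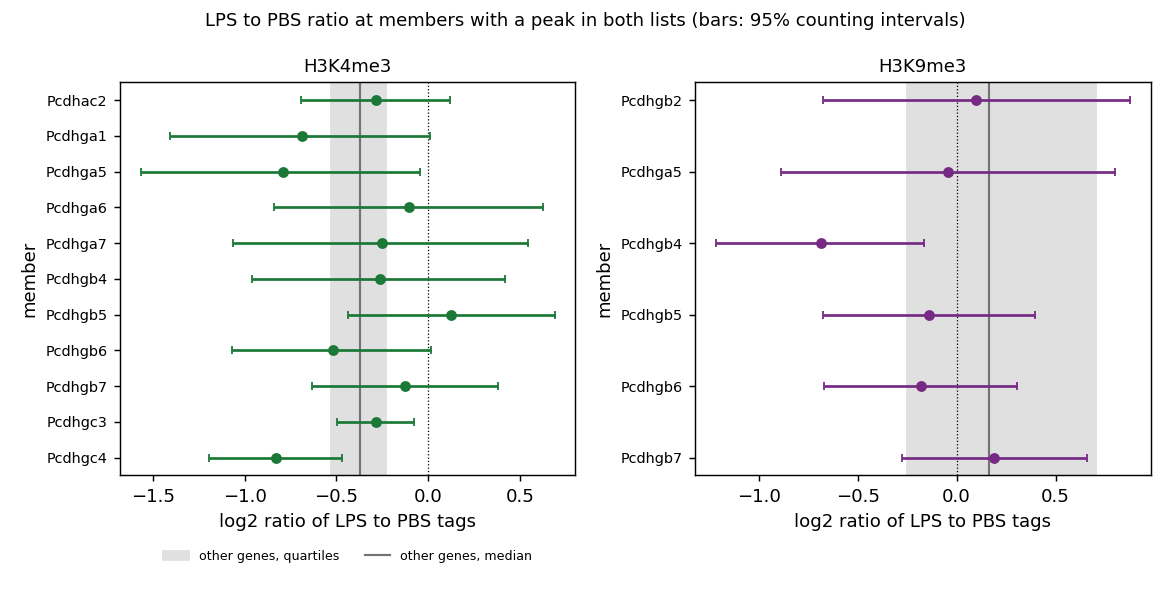
Log2 of LPS over PBS tags, each per filtered tag (points, with exact 95% counting intervals) at members with a peak in both lists, for H3K4me3 (left) and H3K9me3 (right), with the median (line) and quartiles (band) of other genes. For H3K4me3 the intervals of 8 of 11 members reach 0, and the points lie on both sides of the median of other genes, -0.37.

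When overlapping peaks of both treatments were merged, the locus held 19 H3K4me3 regions. Both lists named 13 of them, against 60.6% of the regions of the genome, with 2 in LPS only and 4 in PBS only. All 13 had a ratio below 0, with a median of -0.52, where the median of all 22219 shared regions was -0.31. Per covered kb the medians were -0.21 and -0.15. For H3K9me3 there were 27 regions, 8 of them in both lists, against 20% in the genome, with 8 in LPS only and 11 in PBS only. The 7 of these 8 that lie in Pcdhg were all late peaks of the B-type genes, of Pcdhga5 or of the pseudogene Pcdhgb8.

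Other genes of the pathway were counted by peaks within 1 kb of either gene end, a rule that differs from the window used for the clustered members, so the counts were not compared. Of 12 non-clustered protocadherin genes, 5 had an H3K4me3 peak in LPS and 7 in PBS (41.7% and 58.3%), against 61.6% and 63.4% of all protein-coding genes by this rule. Pcdh7 held 873 H3K4me3 tags with LPS and 1138 with PBS (a log2 ratio of -0.23, -0.36 to -0.10), and Pcdh1 had 421 and 518 (-0.15, -0.34 to 0.04). H3K9me3 lay at 2 of the 12 in LPS, Pcdh1 with 38 tags and Pcdh8 with 21, and at 0 in PBS, against 14.8% and 11.7% of all genes. Of 18 genes for loop formation and silencing at such loci, 13 had H3K4me3 at an end in both lists. Their median ratio was -0.38, where that of all genes was -0.37. Rad21, Stag1, Nipbl, Dnmt3a and Dnmt1 had no such peak in either list. Ctcf, the loop anchor protein, had 430 and 667 tags (-0.48, -0.66 to -0.31). Setdb1 had 234 and 338 (-0.38, -0.63 to -0.14), and Smchd1, a silencing factor of the mouse clusters, 391 and 561 (-0.37, -0.56 to -0.18). Wapl, which releases cohesin, had 130 and 576 (-2.0, -2.28 to -1.72), and is named because its ratio was seen to be low.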

How the data were processed

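ChIP-seq of H3K4me3 and H3K9me3 was deposited as 1 peak table per library for 4 libraries. Build mm10 and the tools DiffBind, MACS 1.4.2, Bowtie 0.12.8 and CASAVA 1.4 are listed in the submitters' processing notes. Per the file headers, MACS called each library alone with no control, a p cutoff of 1e-05 and at most 1 tag per position. The deposited columns used were the tag count of a peak, the authors' score (minus 10 times the log10 p-value) and, as a description, the authors' fold enrichment ratio over local background. Fold was not compared between libraries. Gene positions came from a RefSeq table of GRCm38.p6. It has no strand, which was taken from RefSeq promoter entries for 17492 other genes. Members were read in the direction in which Pcdha and Pcdhg share their last end. A peak belonged to a window from 1 bp of overlap. Ratios used filtered tags with exact Clopper-Pearson intervals (SciPy 1.17.1), and scripts were checked on simulated data. The text names every member with a peak in any list, members without one by name or count, and non-members inside or next to the locus or in the gene lists. Windows, a score of 100, equal list lengths, overlap and scaling were varied. Members, lists and windows were chosen with earlier results of these data known.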

Additional observations from a re-analysis of the deposited data

How the results depend on the processing

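No paired analysis was possible because each group had 1 library, and no replicate could be left out. With peaks of score 100 or more, members with H3K4me3 numbered 5 in LPS, members with H3K9me3 4 in LPS and 2 in PBS, H3K4me3 peaks in the locus 6 in LPS, H3K9me3 peaks 6 in LPS and 2 in PBS, and late H3K9me3 summits 4 in LPS and 2 in PBS. The alternatives for the late summits were chosen after seeing the data. Much of the pattern therefore rests on weak peaks. Windows of 1 kb on each side held H3K9me3 at 2 members in LPS and 4 in PBS, since most summits lie later. Windows of 5 kb on each side gave 18 members with H3K4me3 in LPS, where the locus held 15 such peaks, and 17 with H3K9me3 in PBS. Neighbouring windows of this size overlap, so 1 peak can count for several members. A constant region of 20 kb took in 1 H3K4me3 peak in LPS and 1 in PBS. H3K4me3 peaks near H3K9me3 numbered 8 in LPS and 10 in PBS within 5 kb, and 3 in PBS when bases had to be shared. The H3K4me3 ratio was -0.23 per covered kb and -0.060 relative to the median of all shared regions. The other alternatives, lists of equal length among them, kept each count within 1.5 times and the ratio within its interval.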

Other observations

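Some of the peaks in the locus outside the variable exon windows lay at non-members. Taf7, the gene of a subunit of the general transcription factor TFIID that lies between Pcdhb and Pcdhg, had an LPS peak of H3K4me3 with 43 tags and a width of 0.507 kb and a PBS peak with 112 tags and a width of 1.03 kb (log2 ratio -1.23, -1.77 to -0.71; -0.21 per covered kb). The summits of both libraries lay at the same base, 167 bp inside the right end of the gene. Slc25a2, a gene of the mitochondrial carrier family beside it, had H3K9me3 in an LPS peak of 56 tags and 0.796 kb and a PBS peak of 15 tags and 0.202 kb (1.86, 1.01 to 2.79; -0.12 per covered kb). A PBS peak of H3K4me3 with 25 tags lay further towards Pcdhga1. Outside the windows, Slc25a2 and the pseudogene Pcdhgb8, 1 H3K9me3 peak was listed in LPS, with 13 tags between Pcdhb and Pcdhg. In PBS there were 5, with 20 and 14 tags in Pcdha, 13 in Pcdhb, and 17 and 16 between Pcdhb and Pcdhg. The PBS peak of 20 tags lay inside the pseudogene Gm36858.

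The pseudogene Pcdhgb8, which sits in the Pcdhg array between Pcdhga11 and Pcdhga12 and is no member by the rule, had H3K9me3 at the same depth into the gene as the B-type genes. Its summits lay 1701 bp after the start in LPS (79 tags) and 1714 bp in PBS (40 tags), and the log2 ratio was 0.94 (0.37 to 1.52), or 0.33 per covered kb. Pcdhgb8 was chosen after its values were seen.

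The 33 protein-coding neighbours in the locus or within 500 kb of it had H3K4me3 at a gene end in 23 cases in each list (69.7%, against 61.6% of all genes in LPS and 63.4% in PBS), with a median ratio of -0.37. H3K9me3 lay at 7 of them in LPS and 3 in PBS (21.2% and 9.09%, against 14.8% and 11.7%). Neighbours with adjoining ends can have the same peak counted for each of them, as with Ndufa2 and Ik or Hars and Hars2. Hdac3, a histone deacetylase gene beyond Pcdhg, had 384 H3K4me3 tags in LPS and 489 in PBS, the same as the adjoining Rell2. Cd14, an LPS co-receptor gene on the Pcdha side, had 279 and 335.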
